A study of Mus musculus with 2 samples.

Results

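Glycolysis and the pentose phosphate pathway were read through 36 genes that together cover glucose uptake, every step from glucose to pyruvate, the enzymes that set the level of fructose 2,6-bisphosphate, lactate formation and export, and both branches of the pentose phosphate pathway. The genes were chosen by name from the known pathways and no rule used their signal, but earlier results of these data were known when they were chosen. All 36 were represented among the 20656 genes that could be named on the array. BMDMs are macrophages grown from bone marrow, here of 8-week-old male mice that carry the floxed Crif1 f/f allele and for which the methods of the study name no Cre, cultured for 7 days with M-CSF, the growth factor that drives macrophage differentiation. Untreated cells were set against cells given IL-4 for 18 h, at a dose not given for the arrays in the sources used here, and each condition was read as Cy3-labelled RNA on 1 single-colour Agilent array. Array and condition therefore cannot be told apart, no difference has a replicate check, and no p-value is given. The comparison asks how the transcripts of the 2 pathways stood after IL-4, the cytokine that drives macrophages toward the M2 state.

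Glycolysis splits glucose into pyruvate and yields ATP and NADH. Its pace is set mainly at glucose uptake, hexokinase and phosphofructokinase, and phosphofructokinase is switched on by fructose 2,6-bisphosphate, a signal molecule made and degraded by the PFKFB enzymes. The pentose phosphate pathway leaves glycolysis at glucose 6-phosphate, yields NADPH in its oxidative branch and ribose for nucleotides, and returns sugar phosphates to glycolysis through its non-oxidative branch. Macrophages activated by bacterial products are known for high glycolysis, whereas macrophages activated by IL-4 are known for oxidative metabolism, in which glucose is also used.

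At the median, the difference of the members after IL-4 was near that of all genes. The members that differed most with the scaling described next were the PFKFB genes Pfkfb4 and Pfkfb3 and the phosphofructokinase subunit Pfkp. The glucose carrier Slc2a1 and the lactate dehydrogenase subunit Ldhb followed. Signal is given as background-subtracted intensity, and a difference is the log2 signal after IL-4 minus that in untreated BMDMs, after subtraction of each array's 75th percentile. With this scaling the median difference of the 35 members that were well above background on both arrays was -0.02, beside -0.01 over all 12744 genes measured on both. Of the 35 members, 15 had a higher and 20 a lower scaled signal after IL-4, and these counts became 28 and 7 with median scaling, 21 and 14 with no scaling and 30 and 5 with scaling on the spike-in controls. Those 3 settings add a constant to every gene and moved the median of all genes to 0.20, 0.09 and 0.31. The median of the members minus that of all genes, -0.01, cannot change with them. Over the other alternatives it ran from -0.05 with cyclic loess to 0.02 with normexp. In 21 members (60.0%) the difference was within 0.25 of zero, beside 65.6% of all genes, and in 30 members (85.7%) it was within 0.5, beside 86.5%. Among the 2894 genes at or above the members' median signal, 73.3% were within 0.25 and 89.8% within 0.5. Their median was 0.05, with 1739 positive and 1155 negative differences. The members were thus somewhat lower and more spread than these genes, a set that does not match the dimmer members.

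None of the 35 members differed by 2-fold or more, and Fbp1, measured on the untreated array only, has a bound below 2-fold. Among the 14073 genes measured on 1 or both arrays 3.06% reached 2-fold in the higher direction and 3.35% in the lower. This near balance, 431 genes against 472, rests on the scaling, since median scaling gave 628 and 299 and spike-in scaling 756 and 239. At 1.5-fold, Pfkfb4 and Pfkp were higher (2 of 36 members, against 6.36% of all genes) and Pfkfb3 was lower (1 of 36, against 8.95%). The members' counts at 1.5-fold were 3 higher and 0 lower with median scaling, 3 and 1 with no scaling, 7 and 0 with spike-in scaling, and 1 and 1 with the 75th percentile over bright probes, normexp or the median over the probes of a gene. Among the 2894 genes whose mean signal reached the median of the members, 6.05% passed 1.5-fold in the higher direction and 1.87% in the lower. Of these 2894 genes, 88 reached 2-fold in the higher direction and only 13 in the lower. The members' counts are too small to be set apart from these shares.

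Each value carries 2 estimates of error. The scanner software's own estimate gave an SD of 0.204 for the difference of a bright member. It put the error near 10% of the signal on each array for all bright members, so a cut in these SDs acts on them as a fixed cut. For probes printed in 10 spots at a like signal, the SDs between spots on the 2 arrays were combined into an SD of the difference. Its median was 0.0744 over 33 members. Neither covers the spread between cultures. The difference exceeded the software's SD in 15 members and, with the same scaling, was over 2 such SDs in 5, which were Pfkfb4, Pfkfb3, Pfkp, Slc2a1 and Ldhb. The share of all genes past these SDs was not counted. These 5 are the members that differed by more than 0.5, and the share within 0.5 was 85.7% of members and 86.5% of all genes. Their number therefore does not set the members apart. In 9 members several probes could be compared on both arrays, and the differences of the probes of a gene spanned 0.10 at the median and 0.45 at most, for Pfkp.

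**Figure D1:**
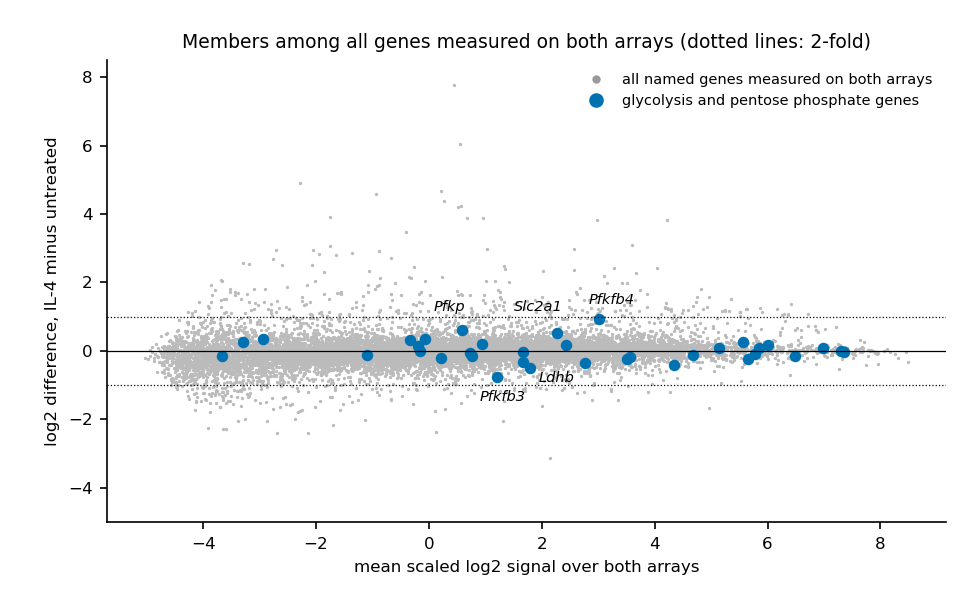
Difference in log2 signal (IL-4 minus untreated) against the mean scaled log2 signal over both arrays, for all genes measured on both arrays (grey points) and the 35 members measured on both (blue points). Dotted lines mark 2-fold; the 35 members lie between them, and the 5 labelled members are those that differ by over 2 SDs of the scanner software's error.

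The promoters of the 3 members that passed 1.5-fold are shown, among them Pfkfb3 and Pfkfb4, which belong to 1 family yet differed in opposite directions. Pfkp was below 1.5-fold with the 75th percentile over bright probes (0.55), normexp (0.49) and the median over its probes (0.39), and Pfkfb3 was with median scaling (-0.54) and spike-in scaling (-0.44). Each window runs from 250 bases before to 50 bases after a RefSeq transcript start (build GRCm38.p6) and is written 5′ to 3′ on the strand of the gene. Capitals mark matches, on either strand, to ACGTG or GCGTG, the core letters to which the hypoxia-inducible factors bind. The first is the Pfkfb3 start at chr2:11502041-11502340 (minus strand), the second the other Pfkfb3 start at chr2:11553880-11554179 (minus strand), the third Pfkfb4 at chr9:108991652-108991951 (plus strand) and the last Pfkp at chr13:6648722-6649021 (minus strand).
Pfkfb3, first start: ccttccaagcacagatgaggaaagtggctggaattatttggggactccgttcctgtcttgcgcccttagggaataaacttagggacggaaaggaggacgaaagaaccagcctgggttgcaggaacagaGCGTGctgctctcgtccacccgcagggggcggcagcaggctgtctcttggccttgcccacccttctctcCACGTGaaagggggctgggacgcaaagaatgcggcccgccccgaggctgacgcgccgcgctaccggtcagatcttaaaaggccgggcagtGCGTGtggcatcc
Pfkfb3, other start: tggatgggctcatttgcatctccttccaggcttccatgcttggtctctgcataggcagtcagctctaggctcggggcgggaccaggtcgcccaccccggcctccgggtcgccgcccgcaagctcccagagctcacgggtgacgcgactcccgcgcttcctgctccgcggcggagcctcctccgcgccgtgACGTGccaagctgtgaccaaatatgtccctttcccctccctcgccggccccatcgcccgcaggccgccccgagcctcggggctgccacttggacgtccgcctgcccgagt
Pfkfb4: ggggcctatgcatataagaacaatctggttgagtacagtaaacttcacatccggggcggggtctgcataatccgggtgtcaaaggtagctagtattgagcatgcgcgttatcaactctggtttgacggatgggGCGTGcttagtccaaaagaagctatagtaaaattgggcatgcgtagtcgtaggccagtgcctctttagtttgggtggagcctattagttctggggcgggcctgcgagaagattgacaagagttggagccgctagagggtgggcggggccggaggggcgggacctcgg
Pfkp: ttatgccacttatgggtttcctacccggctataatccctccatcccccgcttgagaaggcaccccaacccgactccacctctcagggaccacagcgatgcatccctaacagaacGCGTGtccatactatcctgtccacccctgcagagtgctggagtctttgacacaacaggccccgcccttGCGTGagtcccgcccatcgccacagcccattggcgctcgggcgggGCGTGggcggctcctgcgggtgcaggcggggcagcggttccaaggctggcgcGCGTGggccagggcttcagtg
The first Pfkfb3 window holds CACGTG, which reads as ACGTG on both strands and so counts as 2 matches, and 2 matches to GCGTG. The other Pfkfb3 window holds 1 match to ACGTG, the Pfkfb4 window 1 to GCGTG, and the Pfkp window 4 to GCGTG. None of the 4 holds TTCNNNNGAA, the spaced palindrome that STAT6, the transcription factor activated by IL-4, binds. Among 32851 windows of the same length from all genes, 19.6% hold ACGTG, 32.4% hold GCGTG and 6.95% hold TTCNNNNGAA. Among the 54 windows of the 36 members the counts were 21 (38.9%), 30 (55.6%) and 6 (11.1%), and their median GC content was 59.5%, against 52.7% in all windows. These are matches of letters and not measured binding.

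Glucose enters the macrophage mainly through GLUT1, encoded by Slc2a1. Its probe read 3655 in untreated BMDMs and 5663 after IL-4, a scaled difference of 0.53 (a 1.45-fold higher signal, spot SD 0.0715). Slc2a1 had the higher signal after IL-4 under each of 12 other ways of processing the arrays, with differences from 0.47 to 0.85. Several of these, such as outlier spots kept, hardly move a bright member, so the 12 are not separate checks.

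The hexokinases trap glucose inside the cell as glucose 6-phosphate, and the differences of their 3 genes were not all of 1 sign. Hk1, the form found in most tissues, read 7020 in untreated BMDMs and 5932 after IL-4, a difference of -0.34, and its dimmer probe gave -0.30. Hk2, the inducible form, went from 1638 to 2012, a difference of 0.20. Hk3, a form found in myeloid cells, went from 4646 to 5566, a difference of 0.16. The difference between 2 genes' differences does not depend on how arrays are scaled by a constant, and it was 0.54 for Hk2 minus Hk1 and 0.50 for Hk3 minus Hk1, each with a software SD of 0.289. Glucose 6-phosphate isomerase, Gpi1, carries the sugar on to fructose 6-phosphate and differed by 0.08, with its other probes between -0.01 and 0.08.

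Phosphofructokinase, which commits fructose 6-phosphate to glycolysis, is built from liver, muscle and platelet subunits. The signal of the platelet subunit gene Pfkp was 1114 in untreated BMDMs and 1822 after IL-4, a 1.53-fold higher scaled signal (difference 0.61, spot SD 0.0800). A dimmer Pfkp probe, at 86.3 and 104, gave a difference of only 0.16, and the median over both probes gave 0.39. The liver subunit gene Pfkl went from 1639 to 1576, a difference of -0.16. The muscle subunit gene Pfkm went from 1138 to 1061, a difference of -0.20. Pfkp thus stood 0.77 above Pfkl and 0.81 above Pfkm in its difference, each with a software SD of 0.289. Over the 12 alternatives these gaps were 0.54 to 0.77 and 0.59 to 0.81. Scalings by a constant cannot change them, and several other alternatives hardly do.

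Aldolase cleaves fructose 1,6-bisphosphate into triose phosphates. Its main gene, Aldoa, read 152630 and 158684, a difference of -0.04. Aldoc, the form best known from brain, read 3271 and 2775, a difference of -0.34. Triose phosphate isomerase, Tpi1, which makes both triose phosphates usable, differed by -0.12, with -0.06 for its other probe.

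**Figure D2:**
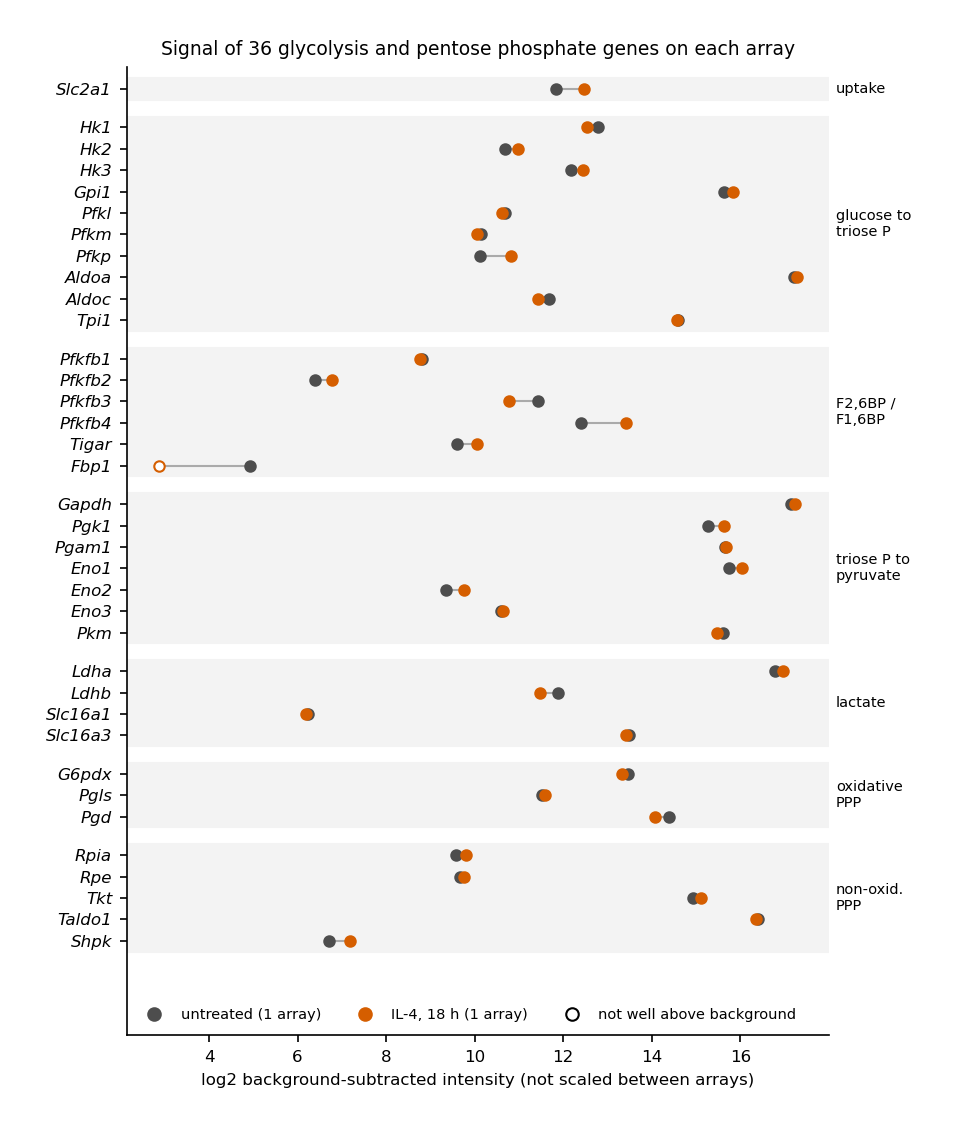
Log2 background-subtracted intensity of each of the 36 genes on the untreated array (grey) and the IL-4 array (orange), before any scaling between arrays, grouped by role in the pathway. Open points are not well above background, as for Fbp1 after IL-4; probes differ in brightness, so genes are compared only between the 2 points on their own line.

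The PFKFB family, whose 4 bifunctional enzymes make and degrade fructose 2,6-bisphosphate, held differences in opposite directions. With 75th percentile scaling Pfkfb4 and Pfkfb3 had the largest of the 35 members measured on both arrays, whereas with median, no or spike-in scaling Pfkp differed by more than Pfkfb3. Pfkfb4 read 5398 in untreated BMDMs and 10952 after IL-4, a 1.89-fold higher scaled signal (difference 0.92, spot SD 0.0695). Pfkfb3, the family member with the strongest kinase bias, went the other way, from 2745 to 1742, a 1.69-fold lower scaled signal (difference -0.76, spot SD 0.0751). A dimmer Pfkfb3 probe, at 74.1 and 39.9, gave a difference of -0.99, while the other Pfkfb4 probe was dim on both arrays and gives no value. Pfkfb1, the liver and muscle form, read 447 and 438, a difference of -0.13. Pfkfb2, the heart form, read 84.4 and 109, a difference of 0.27 with a larger software SD of 0.240 because the signal was dim.

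The ratio of the Pfkfb4 signal to the Pfkfb3 signal was 3.20-fold higher after IL-4 than in untreated BMDMs. On the log2 scale this gap was 1.68 with a software SD of 0.289. It lay between 1.61 and 1.80 over the 12 alternatives, but scalings by a constant cannot change it and several others hardly do. It was the largest among the 18 pairs of isozymes or sister genes compared, of which 8 exceeded 2 software SDs, 5 of them in the PFKFB family. The others were Pfkfb4 minus Pfkfb1 at 1.05, Pfkfb2 minus Pfkfb3 at 1.03, Pfkfb4 minus Pfkfb2 at 0.65 and Pfkfb1 minus Pfkfb3 at 0.63 in this family, both pairs of Pfkp above, and Ldha minus Ldhb at 0.58. These pairs share genes and are not separate results, since each PFKFB pair among them holds Pfkfb4 or Pfkfb3. Pfkfb4 had the highest and Pfkfb3 the lowest difference of the 35 members, so their gap had to be the largest. Pairs of other genes were not counted for comparison. Taken alone, the Pfkfb4 difference ran from 0.86 to 1.24 and that of Pfkfb3 from -0.88 to -0.44 over these alternatives. Pfkfb4 reached 2-fold with median scaling, no scaling and spike-in scaling.

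Tigar and Fbp1 oppose phosphofructokinase by removing fructose bisphosphates. Tigar, a phosphatase induced by p53, read 774 in untreated BMDMs and 1057 after IL-4, a difference of 0.35, and its other probe gave 0.27. Fbp1, the fructose bisphosphatase of gluconeogenesis, was dim, at 30.3 in untreated BMDMs and 7.28 after IL-4, where it was not well above background. Against the lowest signal well above background on that array, Fbp1 was at least 1.17-fold lower, but on the log2 scale this bound of -0.22 shrank to -0.0067 with median scaling and -0.017 with cyclic loess, and the size beyond that bound cannot be read from these arrays.

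**Figure D3:**
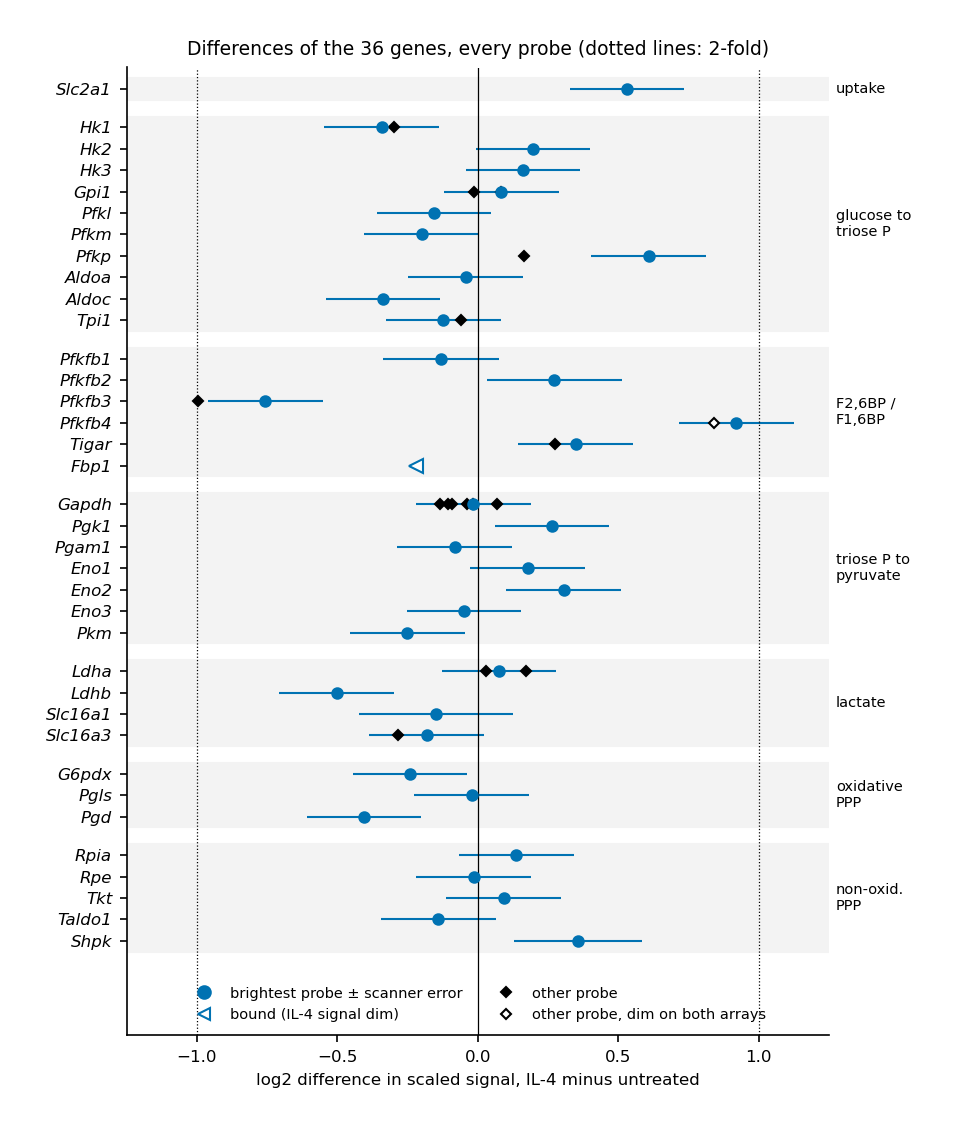
Difference in scaled log2 signal (IL-4 minus untreated) of each of the 36 genes. Circles are the brightest probe with the SD estimated by the scanner software, which does not cover culture spread, the open triangle is the bound for Fbp1, and diamonds are the other probes (open where dim on both arrays); Pfkfb4 at 0.92 and Pfkfb3 at -0.76 lie farthest apart.

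The lower stretch of glycolysis, from triose phosphate to pyruvate, had differences from -0.25 to 0.31 in its 7 genes and a median of -0.02. Glyceraldehyde 3-phosphate dehydrogenase, Gapdh, which yields the NADH of glycolysis and often serves as a reference transcript, read 144898 and 153556, a difference of -0.02. Its 6 other probes gave -0.13 to 0.07. With spike-in scaling Gapdh stood at 0.30, with the median of all genes at 0.31 in that setting. Phosphoglycerate kinase, Pgk1, which makes the first ATP, read 39511 and 50836, a difference of 0.26. Phosphoglycerate mutase, Pgam1, differed by -0.08. Among the enolases, which form phosphoenolpyruvate, Eno1 read 55211 and 66907, a difference of 0.18. The neuronal form Eno2 read 655 and 868, a difference of 0.31, and the muscle form Eno3 differed by -0.05. Pyruvate kinase, Pkm, which closes the pathway, read 50297 and 45287, a difference of -0.25 that changed sign to 0.07 with spike-in scaling. The array value does not tell the splice forms of this gene apart.

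Lactate dehydrogenase links pyruvate and lactate, and its A subunit favours lactate formation while its B subunit favours the reverse. Ldha read 112334 in untreated BMDMs and 126906 after IL-4, a difference of 0.08, and its other probes gave 0.03 to 0.17. Ldhb read 3780 and 2860, a difference of -0.50 (1.42-fold lower, spot SD 0.0749). It was lower under each of the 12 alternatives, from -0.56 to -0.18, several of which hardly move a bright member. The gap of 0.58 between the subunits had a software SD of 0.289. The lactate exporter Slc16a3, known as MCT4, read 11506 and 10865, a difference of -0.18, with -0.28 for its other probe. Slc16a1, or MCT1, was dim, at 75.9 and 73.3, and differed by -0.15 with a software SD of 0.274. Both carriers turned positive with median scaling and with spike-in scaling, where they stood at 0.17 for Slc16a1 and 0.14 for Slc16a3, and Slc16a1 also did with quantile normalization and cyclic loess.

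In the pentose phosphate pathway the 8 genes had a median difference of -0.02, with 3 positive and 5 negative. The 3 genes of the oxidative branch, which makes NADPH, had negative differences with 75th percentile scaling, although Pgls turned positive with median scaling and no scaling, and Pgls and G6pdx with spike-in scaling. G6pdx, whose enzyme opens the branch, read 11263 in untreated BMDMs and 10212 after IL-4, a difference of -0.24 that became 0.08 with spike-in scaling. Pgls, the lactonase of the next step, read 2922 and 3084, a difference of -0.02. Pgd, whose enzyme makes the next NADPH and ribulose 5-phosphate, read 21360 and 17293, a difference of -0.40 (1.32-fold lower). Pgd kept a negative difference under each alternative, from -0.52 to -0.08, while Pgls ran from -0.08 to 0.30 and changed sign in 3 of the 12. Several of the 12 hardly move bright members such as these.

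The 5 genes of the non-oxidative branch and its inputs had a median difference of 0.09. Ribose 5-phosphate isomerase, Rpia, read 762 and 898, a difference of 0.14, and ribulose phosphate epimerase, Rpe, differed by -0.01. Transketolase, Tkt, which moves carbon back toward glycolysis, read 31140 and 35576, a difference of 0.09. Transaldolase, Taldo1, its partner in that exchange, read 86012 and 83592, a difference of -0.14. Shpk, or CARKL, phosphorylates sedoheptulose and is known as a kinase that restrains inflammatory activation of macrophages. Its signal was dim, at 105 in untreated BMDMs and 144 after IL-4, a difference of 0.36 with a software SD of 0.228. With normexp background correction the Shpk difference was 0.09, and that of Pfkfb2 was 0.08.

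**Figure D4:**
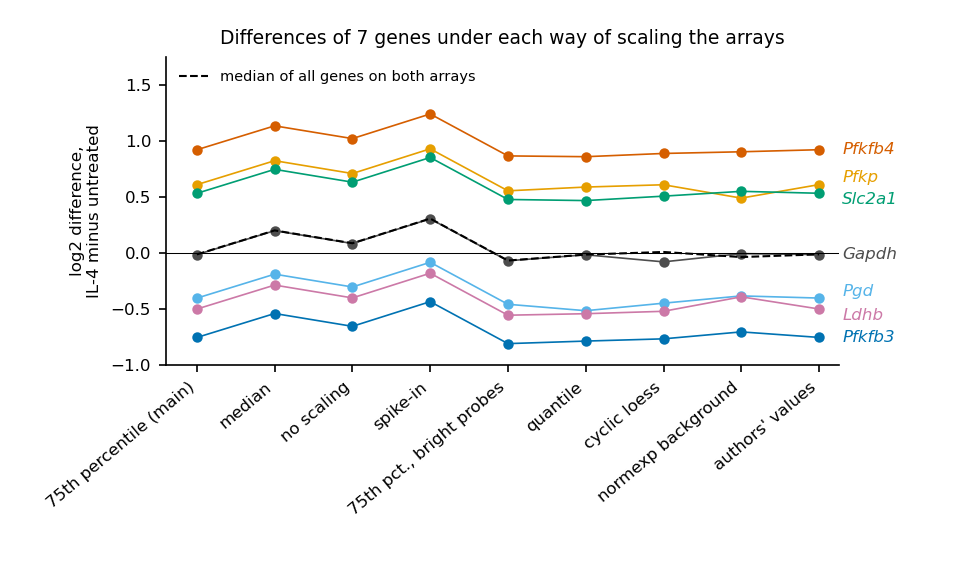
Difference in log2 signal (IL-4 minus untreated) of 7 members under 9 ways of scaling or background-correcting the 2 arrays, with the median of all genes measured on both arrays as a dashed line. The constant scalings move all genes together, Gapdh lies near the dashed line throughout, and Pfkfb4, Pfkp and Slc2a1 stay above it while Pgd, Ldhb and Pfkfb3 stay below it.

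The order of the 5 leading members ran from Pfkfb4 through Pfkp, Slc2a1 and Ldhb to Pfkfb3. The software's error does not separate all neighbours, since Pfkp at 0.61 and Slc2a1 at 0.53 each carried a software SD of 0.204. Across all 36 genes, 20 kept the sign of their difference in every alternative that gave a value, 15 changed it in at least 1, and Gpi1 was at 0 with quantile normalization and positive otherwise. Fbp1 is among the 20, but a bound of the other sign gives no value, so its bound could not change sign. Several alternatives, such as outlier spots kept or another filter on dim probes, hardly move a bright member. No count of kept signs was made over all genes. The 17 enzymes from hexokinase to pyruvate kinase, each measured on both arrays, had 7 positive and 10 negative differences, a range of -0.34 to 0.61 and a median of -0.04. With median scaling that median was 0.17 and with spike-in scaling 0.28, so its sign rests on the scaling.

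Genes next to the 36 in the same pathways were read from lists chosen by name. Of 14 other glucose and lactate carriers, 13 were on the array and 11 measured on both arrays, and 1 was at least 2-fold higher. That gene was Slc2a6 (GLUT6), which read 1023 in untreated BMDMs and 4477 after IL-4, a 4.09-fold higher scaled signal. Slc2a9, a urate and hexose carrier, differed by 0.69, while Emb, a partner protein of the lactate carriers, and Slc2a4, the insulin-sensitive GLUT4, differed by -0.50 and -0.49. The median of the 11 was -0.08.

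Of 18 other isozymes of glycolysis and gluconeogenesis, 8 were measured on both arrays and 7 on neither, and 1 was at least 2-fold higher. Pyruvate carboxylase, Pcx, which turns pyruvate into oxaloacetate, read 487 and 1329, a 2.55-fold higher signal. Pgam5, a mitochondrial phosphatase related to the mutases, differed by 0.21 and the muscle mutase Pgam2 by -0.58, and the testis form Ldhc, dim after IL-4, was at least 1.43-fold lower. Of 7 other pentose phosphate and nucleotide sugar genes, 5 were measured on both arrays and 1 was at least 2-fold higher. It was Prps1, which turns ribose 5-phosphate into the precursor of nucleotides and read 3662 and 10922, a 2.78-fold higher signal, beside a difference of 0.14 for its sister gene Prps2. Nmrk1, a nicotinamide riboside kinase, differed by -0.55, and Tktl2, a relative of transketolase that was dim after IL-4, was at least 1.52-fold lower. No gene of these 3 lists that was measured on both arrays was 2-fold lower, and the genes read on the untreated array only have bounds below 2-fold that do not limit the size of a decrease.

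**Figure D5:**
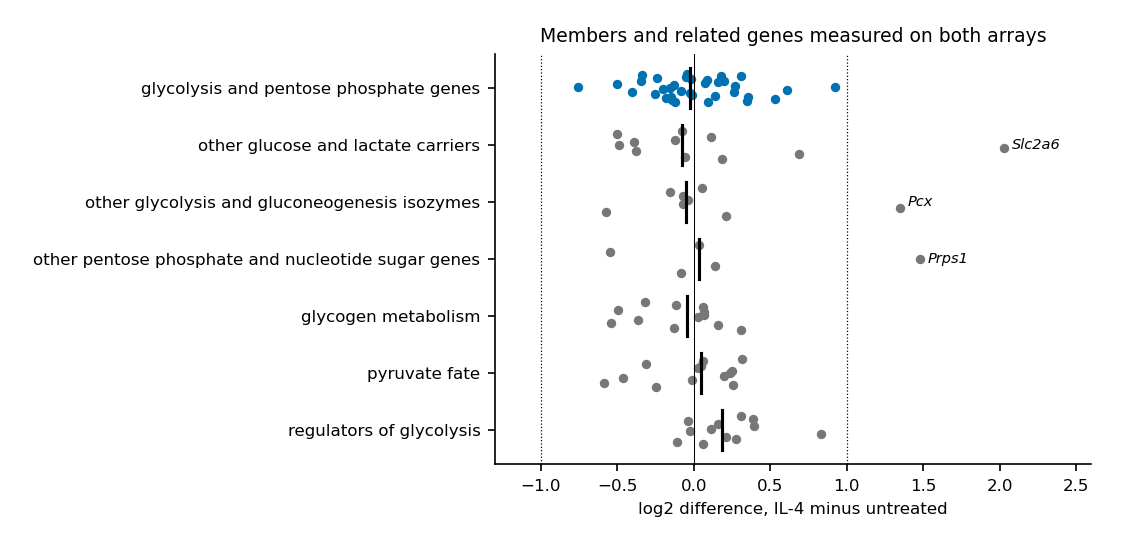
Difference in log2 signal (IL-4 minus untreated) of the 35 members measured on both arrays (blue) and of genes in 6 related lists (grey), with the median of each list as a black bar. Dotted lines mark 2-fold; Slc2a6, Pcx and Prps1 are the genes beyond them, and none of the 35 members is.

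The labelled cell type was read from its markers on the same arrays. All 8 macrophage markers that could be matched were well above background on both arrays, among them Csf1r with a difference of 0.09 and Adgre1 with 0.17, while 5 of the 8 (Itgam, Lyz2, Mertk, Fcgr1 and Cd14) were at least 1.5-fold lower after IL-4, from -0.70 for Lyz2 to -1.42 for Cd14. The 4 markers of IL-4 response were all over 2-fold higher, with Mrc1 at 5.33-fold. All 5 fibroblast markers were well above background on both arrays as well, and Col1a2 read 233342 and 234332. Their differences ran from -0.34 to 0.51 with a median of -0.09. All 7 matched neutrophil markers were also well above background, with differences from -0.80 to 0.30, and none of the 4 erythroid markers reached that level on either array. The part of other cell types in the members' signal was not tested, and in RNA of a whole culture fewer cells of a type and less RNA per cell cannot be told apart. The 4 proliferation markers differed by -0.13 to 0.00.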

How the data were processed

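RNA of untreated and IL-4-treated (18 h) BMDMs was hybridised to 2 single-colour arrays, 1 per condition, grouped by their labels. The authors deposited the output of Feature Extraction 10.10.1.1, whose spot intensity has the background subtracted and has not been scaled between arrays. The authors also deposited a table of log2 values, for which no tool is given in the sources used here. Its column medians were 0.16 for untreated and 0.016 for IL-4, and the difference of its 2 columns lay within 0.00057 of that computed from the scanner intensity for every member, so it serves as an alternative although its centring stays unknown.

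From 43020 spots for genes, outlier spots were left out and the spots of each of 39424 probes averaged as log2 intensity. The 75th percentile of each array, 9.84 for untreated and 9.94 for IL-4, was subtracted. Spots well above background made up 59.8% and 57.4%, and this and the number of arrays limit the precision. A probe counted as well above background where the flag was set in most of its spots, and no spot of a member was saturated. Genes were named by matching RefSeq accessions to a table of GRCm38.p6 (27229 probes, 20656 genes). The grid was annotated on mm9, so coordinates are given only for promoter windows, which come from RefSeq on GRCm38.p6. A gene was read from its brightest probe by mean log2 signal (53 probes for 36 members, 26 members with 1 probe). A probe well above background on 1 array only gives a bound, for which the dim side is set to the lowest signal flagged as well above background on its array, or to the probe's own signal where that is higher.

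No test was possible with 1 array per condition. Calls were counted at 2-fold and 1.5-fold, and simulated data with known changes were used to test the counting. The spot SD of a gene is an SD of the difference, which combines the SDs between spots on the 2 arrays. It was the median over probes printed in 10 spots and within 1 log2 unit of the gene's signal. The members and lists were chosen with earlier results of these data known. All members are named, and of each related list the 2 largest differences in each direction. Pdk1, Pdk3 and Pdp2 are named as well, to complete their families. Of the marker lists a few genes are named, chosen after their values were seen. Marker lists not described in the report had few genes well above background on both arrays, namely 2 of 5 for T cells, 1 of 4 for B cells, 1 of 4 for dendritic cells, 2 of 5 for mast cells and basophils, and 3 of 4 for eosinophils. Slc2a12, Cd68 and Ly6g were not matched to a probe. Alternatives were no scaling, cyclic loess, quantile normalization, scaling by the median, by the 75th percentile of bright probes or by 7 spike-in probes, normexp (offset 50), outlier spots kept, the authors' values, the median over the probes of a gene, and 2 other filters on dim probes. Python 3.11.15, numpy 2.4.6, pandas 2.3.3, matplotlib 3.10.9, R 4.3.3 and limma 3.58.1 were used.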

Additional observations from a re-analysis of the deposited data

How the results depend on the processing

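No paired analysis was possible because there was 1 array of each condition. With quantile normalization, cyclic loess, the 75th percentile over bright probes, outlier spots kept, or the median over the probes of a gene, the counts of members past 2-fold stayed at 0 and the medians of the members, the glycolysis enzymes and the pentose phosphate enzymes moved by less than the spot error. The number of members at least 2-fold higher went from 0 to 1 (Pfkfb4) with median scaling, no scaling and spike-in scaling, and to 2 at a 1.5-fold threshold. The number at least 2-fold lower went from 0 to 1 with the authors' processed values and with no filter on dim probes, where Fbp1 is read without its bound, and to 1 at 1.5-fold (Pfkfb3). The median difference of the members went from -0.02 to 0.19 with median scaling, 0.078 with no scaling and 0.30 with spike-in scaling. For the glycolysis enzymes it went from -0.04 to 0.17, 0.056 and 0.28, and for the pentose phosphate enzymes from -0.02 to 0.20, 0.082 and 0.30. These settings shift every gene alike. The number of all genes at least 2-fold different either way was 903, and 403 with normexp, 2958 with no filter, 2959 with the authors' processed values, 479 where a gene had to be measured on both arrays, 2154 at 1.5-fold and 293 at 3-fold. Fbp1 had no value with quantile normalization, spike-in scaling or where both arrays had to measure it. With 1 array per condition, the spread between cultures is unknown, and dim members such as Fbp1, Slc16a1, Pfkfb2 and Shpk carry the largest spot error.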

Other observations

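Glycogen, the store that feeds glucose 6-phosphate, and the fate of pyruvate were read from lists chosen by name. All 12 genes of glycogen metabolism were measured on both arrays, none differed by 2-fold, and their median difference was -0.04. Ugp2, which makes UDP-glucose, had the highest difference at 0.31, followed by the muscle phosphorylase Pygm at 0.16. The liver phosphorylase Pygl, which releases glucose from glycogen, read 10683 in untreated BMDMs and 7857 after IL-4, a difference of -0.54, and Gyg, which primes new glycogen, differed by -0.50. All 13 genes of pyruvate fate were measured on both arrays, with a median of 0.05. Dlat, a subunit of pyruvate dehydrogenase, and Pdp1, the phosphatase that activates the complex, differed by 0.31 and 0.25. Of the kinases that inactivate it, Pdk4 and Pdk2 differed by -0.59 and -0.47, whereas Pdk1 and Pdk3 differed by 0.20 and -0.01. The other phosphatase, Pdp2, differed by -0.25, so neither family went in a single direction.

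Of 13 regulators of glycolysis, 12 were measured on both arrays, with 9 positive and 3 negative differences and a median of 0.18. Myc, a transcription factor that drives glycolytic genes, read 1111 and 2116, a 1.78-fold higher signal. Ppargc1b, a coactivator of oxidative metabolism, was well above background only after IL-4 and was at least 1.84-fold higher. The hypoxia-inducible factor Hif1a read 1387 and 1447, a difference of -0.04, and Rraga, a nutrient-sensing GTPase, differed by -0.11. With spike-in scaling the median of all genes moved to 0.31, so differences of this size have no settled sign. None of these values has a replicate, and the differences were not tested.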
